A study of Homo sapiens with 9 samples.

Results

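The genes described here are 10 S100 genes, which code for small calcium-binding proteins, out of 20030 genes in the count table: S100A2, S100A3, S100A4, S100A6, S100A8, S100A9, S100A10, S100A11, S100A16 and S100P. They were chosen from the measured values of these same libraries, so their levels and differences are a description and not evidence that the family differs. No test of the family was made. The p-values printed for single genes come from a fit over all genes, and those of the 10 genes are not independent of how the genes were chosen. RNA was sequenced from the hepatocellular carcinoma (HCC) line MHCC97L and from its 2 drug-resistant sublines, in 3 libraries per line and 9 in all, to compare each resistant line with the line it came from. MHCC97L was untreated. MHCC97L-Src had been grown in rising amounts of saracatinib, an inhibitor of Src family kinases, until stably resistant to 4 μmol/L. MHCC97L-Oxa was stably resistant to 2 μmol/L of oxaliplatin, a platinum drug that damages DNA. All libraries were stranded and made from poly(A) RNA with the TruSeq kit. Whether a resistant line is a single clone, and whether drug was present at harvest, is not stated. The labels do not say that the 3 libraries of a line came from separate cultures, although the study speaks of independent experiments, so p-values measure the spread between these libraries only.

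S100 proteins bind calcium through paired EF-hand loops and mostly act as dimers that grip other proteins when calcium rises. Inside cells they bind annexins, myosin, p53 and other partners, and some are released and bind surface receptors such as RAGE (gene AGER) and TLR4. S100A8 and S100A9 are best known from neutrophils and monocytes, and several S100 genes are expressed in epithelial tumours, HCC among them.

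The gene counts of a library summed to between 16970486 and 18209213. Levels within a gene are given as raw counts or as CPM, counts scaled by the total of the library. Levels between genes are compared as the deposited FPKM, which is also divided by transcript length. The smallest amount taken as detectable was 3 counts, 0.165 to 0.177 CPM, a limit that covers counting error only. Differences are log2 fold changes from edgeR's quasi-likelihood fit over all tested genes with TMM scaling, and a gene is called at a Benjamini-Hochberg adjusted p under 0.05. Both comparisons with MHCC97L share the same 3 MHCC97L libraries. In bulk RNA, fewer cells of a kind and less RNA per cell cannot be told apart.

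Library MHCC97L 1 stood apart from the other MHCC97L libraries. Over all tested genes, the squared difference of its counts from those of MHCC97L 2 and MHCC97L 3 was 295 and 270 times what counting error gives, against 39.6 times between MHCC97L 2 and MHCC97L 3. That ratio was 18.3 to 78.4 within MHCC97L-Src and 6.57 to 13 within MHCC97L-Oxa. Of the 10 S100 genes, 8 were lower in MHCC97L 1 than in both other MHCC97L libraries, and 5 had their lowest CPM of all 9 libraries there. The median S100 gene lay at a log2 difference of -0.89 from the mean of MHCC97L 2 and MHCC97L 3, and the median of all tested genes at 0.07. S100A8 and S100A9 were the exceptions, with log2 differences of 0.04 and 0.10. Differences of the 10 S100 genes from MHCC97L are therefore given with and without that library.

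The calgranulins S100A8 and S100A9, partners in the secreted complex calprotectin that binds calcium, zinc and manganese, had the widest range over the lines. S100A9 (NCBI gene 6280) lies on the + strand of chromosome 1, from 153357854 to 153361027 in GRCh38. Its counts were 15, 13 and 12 in libraries MHCC97L 1, 2 and 3. In MHCC97L-Src it had 628, 602 and 688 counts. In MHCC97L-Oxa it had 238, 248 and 250 counts. All 6 resistant libraries were high and all 3 MHCC97L libraries low, MHCC97L-Src lay above MHCC97L-Oxa throughout, and no pair of lines overlapped. The mean was 0.750 ± 0.0923 CPM (SD, n = 3) in MHCC97L, 37.0 ± 1.93 for MHCC97L-Src and 13.7 ± 0.523 for MHCC97L-Oxa. The ratio of mean CPM to MHCC97L was 49.3 for MHCC97L-Src and 18.2 for MHCC97L-Oxa, and MHCC97L-Src stood at 2.705 times MHCC97L-Oxa.

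On the log2 scale S100A9 rose by 5.68 (SE 0.39) in MHCC97L-Src, with an adjusted p of 6.16e-04 (edgeR quasi-likelihood test, Benjamini-Hochberg). It rose by 4.19 (SE 0.39) in MHCC97L-Oxa, with an adjusted p of 0.00898 (edgeR quasi-likelihood test, Benjamini-Hochberg). In MHCC97L-Src it was higher than in MHCC97L-Oxa by 1.49 (SE 0.14), with an adjusted p of 3.79e-04 (edgeR quasi-likelihood test, Benjamini-Hochberg). The call in MHCC97L-Src held without any single library, at log2 values of 5.62 to 5.76, the highest without MHCC97L 1. In MHCC97L-Oxa edgeR's Benjamini-Hochberg adjusted p was 7.56e-04 without MHCC97L 1 and 0.00549 without MHCC97L 2, but the call was lost without MHCC97L 3 (0.0786), MHCC97L-Oxa 1 (0.0929), MHCC97L-Oxa 2 (0.0923) or MHCC97L-Oxa 3 (0.0797). The difference itself stayed between 4.13 and 4.33 over those 6 fits, again highest without MHCC97L 1.

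S100A8 (NCBI gene 6279) lies on the - strand of chromosome 1, from 153390032 to 153391188. It had 5, 6 and 3 counts in MHCC97L 1, 2 and 3, the last of them at the floor. It had 59, 54 and 38 counts in MHCC97L-Src. It had 36, 19 and 25 counts in MHCC97L-Oxa. As CPM, every resistant library lay above every MHCC97L library and MHCC97L-Src above MHCC97L-Oxa, while as FPKM the resistant lines overlapped. Mean CPM was 0.263 ± 0.0874 (SD, n = 3) in MHCC97L, 2.92 ± 0.663 for MHCC97L-Src and 1.48 ± 0.463 for MHCC97L-Oxa. S100A8 rose by 3.52 (SE 0.53) on the log2 scale in MHCC97L-Src, with an adjusted p of 0.018 (edgeR quasi-likelihood test, Benjamini-Hochberg). That call was lost without MHCC97L 3 (0.0971), MHCC97L-Src 1 (0.0528), MHCC97L-Src 2 (0.0619) or MHCC97L-Src 3 (0.0611), all as edgeR's Benjamini-Hochberg adjusted p. The gene entered the test through its counts in MHCC97L-Src, since its MHCC97L counts are below the filter's minimum, and with no filter the adjusted p was 0.00918 (edgeR quasi-likelihood test, Benjamini-Hochberg). Without MHCC97L 1 the difference was 3.55. In MHCC97L-Oxa the log2 difference was 2.49 (SE 0.50), or 2.57 without MHCC97L 1, with an adjusted p of 0.0657 (edgeR quasi-likelihood test, Benjamini-Hochberg), or 0.0263 without that library and 0.0169 without MHCC97L 2. S100A8 entered these tests through its counts in MHCC97L-Oxa, and with no filter it was not called there. The resistant lines differed by 1.03 (SE 0.35), with an adjusted p of 0.135 (edgeR quasi-likelihood test, Benjamini-Hochberg), or 0.0361 without MHCC97L-Src 3.

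**Figure D1:**
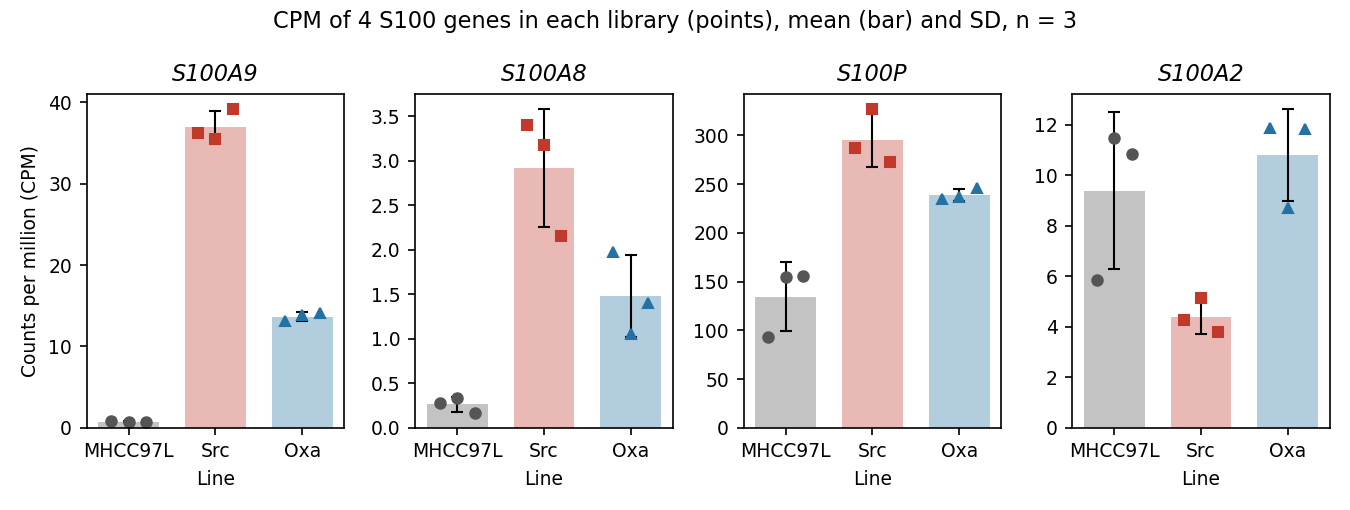
CPM (vertical axis, linear from 0) of S100A9, S100A8, S100P and S100A2 in each line: points are the 3 libraries, bars the mean and whiskers the SD. S100A9 and S100A8 are low in MHCC97L and higher in both resistant lines, S100P follows the same order of lines, and S100A2 is lowest in MHCC97L-Src.

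S100A8 and S100A9 both carry their differences on chromosome 1, where S100A12 lies between them, so the stretches before their start sites are shown, with that of S100A2 as the called gene that was lower in MHCC97L-Src. Sequences are from RefSeq on GRCh38.p14, which held 14 windows for the 10 genes, and only bases outside annotated exons are printed, 5′ to 3′ on the gene's strand. The S100A9 stretch is chr1:153357604-153357853 on the + strand. The S100A8 stretch, before its outermost of 3 start sites, is chr1:153391189-153391438 on the - strand. The S100A2 stretch, before the outer of 2 start sites, is chr1:153565866-153566094 on the - strand. Both strands were searched, with no overlap between matches, for the TATA box TATAAA and the AP-1 site TGANTCA, where N is any base. The same was done for the C/EBP core GCAAT and for the NF-Y box CCAAT, and capitals mark a match on either strand (ATTGC being a GCAAT on the other strand).
S100A9: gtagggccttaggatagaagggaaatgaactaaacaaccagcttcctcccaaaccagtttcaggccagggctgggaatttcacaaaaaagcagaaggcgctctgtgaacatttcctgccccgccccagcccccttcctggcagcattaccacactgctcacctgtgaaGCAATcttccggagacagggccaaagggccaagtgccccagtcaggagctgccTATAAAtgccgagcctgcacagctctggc
S100A8: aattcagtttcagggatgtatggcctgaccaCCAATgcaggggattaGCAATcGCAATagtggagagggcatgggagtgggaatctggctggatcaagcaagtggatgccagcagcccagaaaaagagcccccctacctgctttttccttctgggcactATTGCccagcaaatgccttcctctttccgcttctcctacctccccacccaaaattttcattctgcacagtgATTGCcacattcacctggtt
S100A2: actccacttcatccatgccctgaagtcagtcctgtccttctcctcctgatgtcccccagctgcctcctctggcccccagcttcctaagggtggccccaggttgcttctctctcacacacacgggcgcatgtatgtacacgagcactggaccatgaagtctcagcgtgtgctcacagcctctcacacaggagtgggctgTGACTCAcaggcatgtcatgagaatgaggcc

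The S100A9 stretch holds TATAAA at -29 from the start and 1 GCAAT. The outermost S100A8 stretch holds 4 GCAAT and 1 CCAAT, while TATAAA stands at -29 from its second start site, whose window overlaps an exon and is not printed. The S100A2 stretch holds 1 TGANTCA and no TATAAA. Of the 10 genes, 4 have TATAAA on the gene's strand in a 250-base window: S100A4 at -31, S100A8, S100A9 and S100P at -28. Among all 35116 such windows of the RefSeq table, 10.7% hold TATAAA, 6.57% TGANTCA, 21.3% GCAAT and 32.0% CCAAT on either strand, and 2.63% have TATAAA within the last 50 bases on the gene's strand. These shares are per window and the 4 of 10 is per gene, so they do not measure the same quantity. These matches describe letters in the reference, and binding was not measured.

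S100P, a secreted ligand of RAGE that also binds ezrin, is the 1 gene of the 10 on chromosome 4 (NCBI gene 6286, + strand, 6693069 to 6697170). Its counts were 1654, 2737 and 2807 in MHCC97L 1, 2 and 3. MHCC97L-Src had 4978, 5543 and 4801 counts. MHCC97L-Oxa had 4273, 4238 and 4363 counts. The 3 lines did not overlap, MHCC97L-Src being highest and MHCC97L 1 the lowest library. Mean CPM was 135 ± 35.5 (SD, n = 3) in MHCC97L, 296 ± 27.8 for MHCC97L-Src and 239 ± 5.83 for MHCC97L-Oxa, ratios of 2.195 and 1.77 to MHCC97L. With all libraries and TMM scaling S100P was not called, at a log2 difference of 1.197 (SE 0.29) and an adjusted p of 0.0794 in MHCC97L-Src (edgeR quasi-likelihood test, Benjamini-Hochberg). In MHCC97L-Oxa the log2 difference was 0.82 (SE 0.26), with an adjusted p of 0.184 (edgeR quasi-likelihood test, Benjamini-Hochberg). In MHCC97L-Src 5 of the 9 alternatives that keep every library called it, among them the replicate number as a block (0.0168) and offsets for GC content and gene length (0.0216), both as edgeR's Benjamini-Hochberg adjusted p. Libraries of the same number did not pair, so the block has no basis in the measured values. In MHCC97L-Oxa only the offsets called S100P (0.0401, edgeR's Benjamini-Hochberg adjusted p). Without MHCC97L 1 the differences were smaller, 0.99 and 0.68, and the adjusted p values were 0.0149 and 0.00254 (edgeR quasi-likelihood test, Benjamini-Hochberg). Without MHCC97L 2 they were 1.39 and 1.05, with adjusted p values of 0.0119 and 0.0357 (edgeR quasi-likelihood test, Benjamini-Hochberg).

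S100A2 binds p53 and is a gene of basal epithelia (NCBI gene 6273, chromosome 1, - strand, 153561108 to 153567890). It had 103, 204 and 195 counts in MHCC97L 1, 2 and 3. It had 74, 87 and 67 counts in MHCC97L-Src. It had 216, 156 and 210 counts in MHCC97L-Oxa. MHCC97L-Src lay below both other lines with no overlap, and MHCC97L and MHCC97L-Oxa overlapped. Mean CPM was 9.39 ± 3.10 (SD, n = 3) in MHCC97L, 4.402 ± 0.668 for MHCC97L-Src and 10.8 ± 1.81 for MHCC97L-Oxa. S100A2 was lower in MHCC97L-Src than in MHCC97L-Oxa, with a log2 difference of -1.23 (SE 0.24) and an adjusted p of 0.0177 (edgeR quasi-likelihood test, Benjamini-Hochberg). That call was lost without MHCC97L-Src 1 (0.0949), MHCC97L-Oxa 1 (0.0777) or MHCC97L-Oxa 3 (0.0797), and with all 9 libraries in one fit (0.325), all as edgeR's Benjamini-Hochberg adjusted p. Against MHCC97L, the log2 difference of MHCC97L-Src was -1.03 (SE 0.47), with an adjusted p of 0.178 (edgeR quasi-likelihood test, Benjamini-Hochberg), and -1.28 without MHCC97L 1. With offsets for GC content and gene length it was -1.365, with an adjusted p of 0.0159 (edgeR quasi-likelihood test, Benjamini-Hochberg). MHCC97L-Oxa differed from MHCC97L by 0.20 (SE 0.42), which became 0.01 without MHCC97L 1 and -0.02 with the offsets.

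S100A3, a cysteine-rich protein of the hair cuticle, lies inside the span of S100A4 on the same strand, from 153547329 to 153549372 on chromosome 1 (NCBI gene 6274). The annotated exons of S100A3 and S100A4 share 0 bases, but whether reads were counted by strand or split between overlapping genes is not given in the sources used here. S100A3 had 117, 186 and 247 counts in MHCC97L 1, 2 and 3. It had 174, 183 and 116 counts in MHCC97L-Src. It had 182, 150 and 158 counts in MHCC97L-Oxa. The 3 lines overlapped throughout. Its log2 difference was -0.10 (SE 0.46) in MHCC97L-Src, turning to just above 0 with DESeq2's size factors, and -0.18 (SE 0.40) in MHCC97L-Oxa, turning to 0.10 without MHCC97L 3. Without MHCC97L 1 these were -0.33 and -0.36. With offsets for GC content and gene length they were -0.64 and -0.49, and neither was called.

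S100A4, which binds nonmuscle myosin and is known from motile and metastatic cells, is on the - strand of chromosome 1, from 153543613 to 153550136 (NCBI gene 6275). It had 5228, 8378 and 9249 counts in MHCC97L 1, 2 and 3. It had 10417, 12870 and 10018 counts in MHCC97L-Src. It had 11055, 10524 and 12120 counts in MHCC97L-Oxa. As CPM, both resistant lines lay above all MHCC97L libraries and overlapped each other. The means were 427.5 ± 116 (SD, n = 3) in MHCC97L, 643 ± 101 for MHCC97L-Src and 625.5 ± 50.03 for MHCC97L-Oxa, as CPM. Its log2 difference from MHCC97L was 0.66 (SE 0.31) in MHCC97L-Src and 0.55 (SE 0.27) in MHCC97L-Oxa, neither of them called. Without MHCC97L 1 these were 0.45 and 0.40, and the MHCC97L-Oxa value then had an adjusted p of 0.0334 (edgeR quasi-likelihood test, Benjamini-Hochberg). With offsets for GC content and gene length the differences were 0.38 and 0.34, and neither was called.

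S100A6, or calcyclin, which binds CACYBP, is next to S100A5 on the - strand, from 153534599 to 153536244 (NCBI gene 6277). It ranged from 5598 to 10643 counts in MHCC97L, from 9481 to 12456 for MHCC97L-Src and from 10527 to 11861 for MHCC97L-Oxa. The lines overlapped as CPM in all 3 comparisons, with MHCC97L 1 the lowest library. Its log2 difference from MHCC97L was 0.42 (SE 0.32) in MHCC97L-Src, which became -0.12 with offsets for GC content and gene length. In MHCC97L-Oxa it was 0.33 (SE 0.29), which became just under 0 with those offsets. Without MHCC97L 1 the differences were 0.19 and 0.16.

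S100A10 and S100A11 are partners of annexins, S100A10 forming a membrane complex with annexin A2 and S100A11 binding annexin A1. They lie apart from the other S100 genes of chromosome 1, S100A10 from 151982915 to 151994390 (NCBI gene 6281) and S100A11 from 152032506 to 152047907 (NCBI gene 6282), both on the - strand. S100A10 ranged from 5018 to 7679 counts in MHCC97L, from 4963 to 6560 for MHCC97L-Src and from 7944 to 8724 for MHCC97L-Oxa. It was highest in MHCC97L-Oxa, whose CPM overlapped with neither other line. Its log2 difference was -0.08 (SE 0.28) in MHCC97L-Src, -0.23 without MHCC97L 1, turning to 0.02 with DESeq2's size factors. With offsets for GC content and gene length it was -0.52, with an adjusted p of 0.0381 (edgeR quasi-likelihood test, Benjamini-Hochberg). In MHCC97L-Oxa it was 0.33 (SE 0.23), or 0.23 without MHCC97L 1 and 0.05 with those offsets. MHCC97L-Src against MHCC97L-Oxa gave -0.41 (SE 0.15), not called, with an adjusted p of 0.165 (edgeR quasi-likelihood test, Benjamini-Hochberg), or 0.00304 without MHCC97L-Src 2.

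S100A11 ranged from 11029 to 15778 counts in MHCC97L, from 18051 to 20854 for MHCC97L-Src and from 15555 to 17186 for MHCC97L-Oxa. MHCC97L-Src lay above both other lines, which overlapped. The log2 difference was 0.58 (SE 0.27) in MHCC97L-Src, 0.43 without MHCC97L 1 and 0.14 with offsets for GC content and gene length. In MHCC97L-Oxa it was 0.20 (SE 0.23), or 0.10 without MHCC97L 1, which became -0.12 with offsets for GC content and gene length. S100A11 was 0.38 (SE 0.13) higher in MHCC97L-Src than in MHCC97L-Oxa, not called, with an adjusted p of 0.129 (edgeR quasi-likelihood test, Benjamini-Hochberg), or 0.0165 without MHCC97L-Src 3. Processed copies of S100A11 exist elsewhere in the genome, and how reads that fit more than 1 place were treated is not given.

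S100A16, a broadly expressed S100 protein, is on the - strand of chromosome 1, from 153606886 to 153613145 (NCBI gene 140576). It ranged from 4034 to 7094 counts in MHCC97L, from 8287 to 9592 for MHCC97L-Src and from 9631 to 10226 for MHCC97L-Oxa. As CPM both resistant lines lay above every MHCC97L library and overlapped each other. Its log2 difference from MHCC97L was 0.70 (SE 0.29) in MHCC97L-Src, or 0.49 without MHCC97L 1. In MHCC97L-Oxa it was 0.72 (SE 0.27), or 0.57 without MHCC97L 1, with adjusted p values of 0.202 and 0.00518 (edgeR quasi-likelihood test, Benjamini-Hochberg). With offsets for GC content and gene length the differences were 0.23 in MHCC97L-Src and 0.44 in MHCC97L-Oxa, with adjusted p values of 0.159 and 0.0234 (edgeR quasi-likelihood test, Benjamini-Hochberg).

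Set side by side, MHCC97L-Src against MHCC97L had 2 of the 10 S100 genes called, S100A8 and S100A9, both higher, where 2.13% of 12037 tested genes were called (edgeR quasi-likelihood test, Benjamini-Hochberg adjusted p under 0.05). All 10 passed the filter on low counts in each comparison. S100A8 passed in both comparisons with MHCC97L only through its counts in the resistant line, where it is high. Its place in the counts against MHCC97L, here and for MHCC97L-Oxa, carries that limit. By CPM ranges that do not overlap, 7 of 10 differed, 6 higher (S100A4, S100A8, S100A9, S100A11, S100A16 and S100P) and S100A2 lower, where 30.5% of tested genes did not overlap. Of the 10 log2 differences 7 were above 0, with a median of 0.62, beside -0.16 over all tested genes. Without MHCC97L 1 that S100 median was 0.44, and with offsets for GC content and gene length, 0.19. With these offsets 5 were called, S100A8, S100A9 and S100P higher, S100A2 and S100A10 lower, where 11.5% of all tested genes were called.

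MHCC97L-Oxa against MHCC97L had 1 of 10 called, S100A9, where 0.953% of 12064 tested genes were called (edgeR quasi-likelihood test, Benjamini-Hochberg adjusted p under 0.05). The CPM ranges of 6 did not overlap, all higher (S100A4, S100A8, S100A9, S100A10, S100A16 and S100P), where 29.5% of tested genes did not overlap. Of the log2 differences 9 were above 0, and S100A3 was below. The median was 0.44, beside -0.19 over all tested genes. It was 0.31 without MHCC97L 1, and 0.20 with offsets for GC content and gene length, under which 6 of 10 were above 0 and S100A8, S100A9, S100A16 and S100P were called higher, where 12.8% of all tested genes were called.

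MHCC97L-Src against MHCC97L-Oxa, which asks where the resistant lines differ from each other, had 2 of 10 called, S100A9 higher and S100A2 lower, where 4.64% of 11994 tested genes were called (edgeR quasi-likelihood test, Benjamini-Hochberg adjusted p under 0.05). The CPM ranges of 6 did not overlap, where 27.6% of tested genes did not. Of these, S100A8, S100A9, S100A11 and S100P were higher and S100A2 and S100A10 lower in MHCC97L-Src. The median S100 log2 difference was 0.09, beside -0.02 over all tested genes, and it turned to -0.05 with offsets for GC content and gene length. With these offsets S100A9 and S100A11 were called higher and S100A2, S100A10 and S100A16 lower, where 9.97% of all tested genes were called.

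Counts of called genes in the lists below, and of the S100 genes, stand beside these shares of all tested genes. DESeq2 called 17.6% for MHCC97L-Src against MHCC97L, 7.42% for MHCC97L-Oxa against MHCC97L and 7% between the resistant lines, and limma on log2(FPKM + 1) called 1.9%, 2.09% and 4.06%. Without MHCC97L 1 edgeR called 5.52% for MHCC97L-Src and 18.5% for MHCC97L-Oxa, and of the 10 S100 genes 3 (S100A8, S100A9 and S100P) and 5 (these with S100A4 and S100A16). In the same order of comparisons, 29.5%, 22.4% and 19.5% of all tested genes had an unadjusted p under 0.05.

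**Figure D2:**
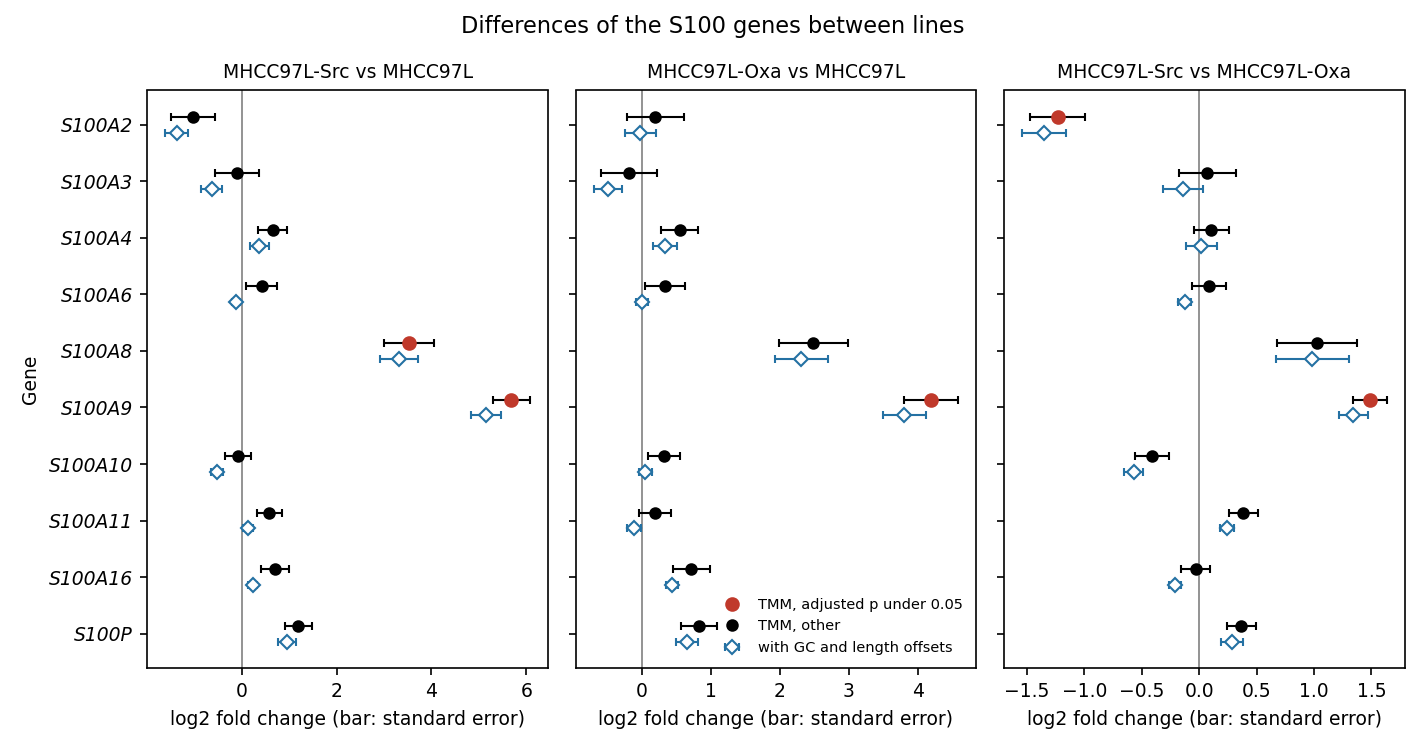
Log2 fold change (horizontal axes, scaled separately) of the 10 S100 genes (vertical axis) in the 3 comparisons, with bars of 1 standard error: filled circles with TMM scaling, red at an adjusted p under 0.05 (edgeR), open diamonds with offsets for GC content and gene length. S100A9 stands at 5.68, 4.19 and 1.49, and the offsets move S100A6 to below 0 in all 3 comparisons.

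Per length, the 10 genes divided into an abundant and a scarce group in each line. S100A11 led in every line, at mean FPKM of 1565, 2158 and 1766 in MHCC97L, MHCC97L-Src and MHCC97L-Oxa. Next came S100A4 and S100A6, whose ranges overlapped in MHCC97L and MHCC97L-Src but not in MHCC97L-Oxa, where S100A4 was higher. In MHCC97L the order went on with S100A10, S100P and S100A16, each overlapping with its neighbour. In MHCC97L-Src S100P, at 638, overlapped with S100A6 and lay above S100A10 and S100A16, which were at 320 and 319 and overlapped. In MHCC97L-Oxa S100P, S100A10 and S100A16 stood at 515, 444 and 337 with no overlap. S100A3 and S100A2 overlapped in every line, at means between 4.08 and 10.4.

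S100A9, at a mean FPKM of 1.02, was the ninth of 10 in MHCC97L, and at 48.5 and 18.9 the seventh in both resistant lines, above S100A2 and S100A3 with no overlap. Among genes with any FPKM in the line, it stood above 34.9% in MHCC97L, 91.2% for MHCC97L-Src and 81.0% for MHCC97L-Oxa. S100A8 was last in every line, at 0.295, 2.38 and 1.47. S100A9 stood below S100A11 per length in each line, including the lines where it was highest.

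**Figure D3:**
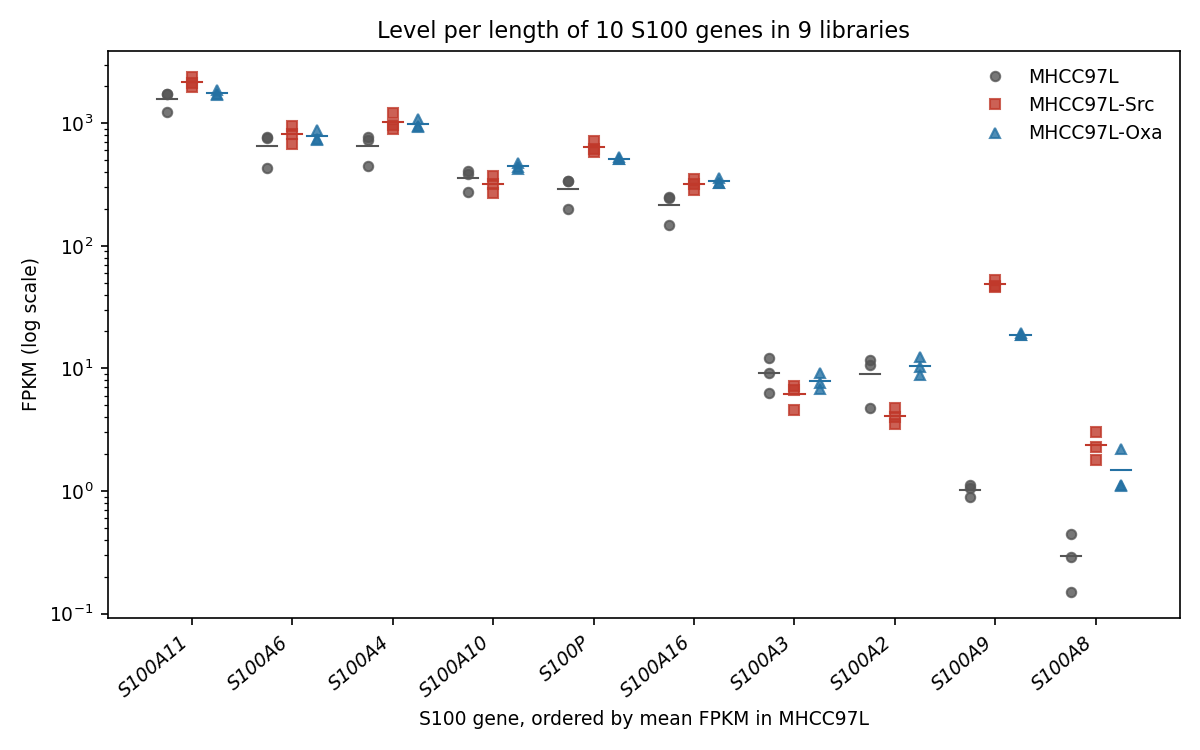
FPKM (vertical axis, log scale) of the 10 S100 genes in the 9 libraries, genes ordered by their mean in MHCC97L; points are libraries and dashes line means. S100A11 is highest in every line, and S100A9 moves from a mean of 1.02 in MHCC97L to 48.5 for MHCC97L-Src and 18.9 for MHCC97L-Oxa.

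Together the 10 genes took 32801, 50429 and 53707 counts in MHCC97L 1, 2 and 3. For MHCC97L-Src the sums were 60889, 68801 and 56510, and for MHCC97L-Oxa 60650, 58992 and 65123. As a percentage of all counts that was 0.256 ± 0.0614 (SD, n = 3), 0.359 ± 0.0426 and 0.343 ± 0.0205, every resistant library lying above every MHCC97L library. The percentages of MHCC97L 1, 2 and 3 were 0.186, 0.284 and 0.299, so MHCC97L 1 lowered the MHCC97L mean and widened its distance from the resistant lines. S100A11 made up 30.8%, 31.4% and 26.3% of the sum in the 3 lines, and S100A9 0.0292%, 1.03% and 0.398%.

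The genes whose pattern over the 9 libraries was most like that of 3 S100 genes were found by the root mean square difference of centred log2 CPM, over 12213 genes. For S100A9 they were CASP14 (0.364), a caspase of the cornifying epidermis, NTSR1 (0.534), the neurotensin receptor, and PTGS1 (0.577), which makes prostaglandins. CASP14 had mean CPM of 8.44, 383 and 169 in MHCC97L, MHCC97L-Src and MHCC97L-Oxa, the same order of lines as S100A9. For S100A8 they were PGF (0.314), SULF2 (0.341) and GDF15 (0.366). For S100P, EGFL7 (0.0622), NXPH4 (0.0705) and ASS1 (0.0728) were closest.

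Of the 11 other S100 genes in the table, 6 had a count in any library and 4 reached 10 counts in a library. S100A13, which takes part in the release of FGF1 and overlaps S100A1 on the opposite strand, had 1251, 2038 and 2138 counts in MHCC97L 1, 2 and 3. It ranged from 2587 to 3388 for MHCC97L-Src and from 2746 to 2942 for MHCC97L-Oxa, both above MHCC97L. S100A14 of epithelia had counts of 19, 40 and 41 for MHCC97L, 75 to 124 for MHCC97L-Src and 97 to 101 for MHCC97L-Oxa. S100A1, best known from muscle, had 2 to 12 counts in MHCC97L, 20 to 42 for MHCC97L-Src and 24 to 35 for MHCC97L-Oxa. These 3 genes were higher in both resistant lines by CPM range, as were S100A4, S100A16 and S100P.

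S100A12, the third calgranulin, had counts of 5, 0 and 6 for MHCC97L, of 10, 9 and 12 for MHCC97L-Src and of 13, 2 and 4 for MHCC97L-Oxa, and was tested only between the resistant lines, at a log2 difference of 0.80 (SE 0.62). Of the other S100 genes, 0 of 3 tested were called by edgeR in either comparison with MHCC97L, and 3 of 3 had an unadjusted p under 0.05 in both. S100A1, 1 of these 3, entered both tests through the resistant lines, where it is high, since its MHCC97L counts do not all reach the filter's minimum. DESeq2 called 2 for MHCC97L-Src and 1 for MHCC97L-Oxa, and limma 0. Between the resistant lines edgeR called 0 of 4, with 0 at an unadjusted p under 0.05 and 0 by DESeq2 or limma. The median log2 difference of the tested genes was 1.73 in MHCC97L-Src, 1.56 in MHCC97L-Oxa and 0.23 between the resistant lines. It covers 3, 3 and 4 of the 11 genes and does not describe the rest. S100A13 and S100A14 were also lowest in MHCC97L 1, and without it the median was 1.46 for MHCC97L-Src and 1.34 for MHCC97L-Oxa. Their MHCC97L-Oxa differences of 0.65 and 1.56 were then 0.51 and 1.34, with adjusted p values of 0.00792 and 0.0183 (edgeR quasi-likelihood test, Benjamini-Hochberg).

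Receptors that bind released S100 proteins were counted as 5 genes, AGER, TLR4, BSG, ALCAM and CD36, of which 4 were tested. BSG (basigin), a receptor of S100A9, was the most abundant, with 12109, 19569 and 20178 counts in MHCC97L 1, 2 and 3, 27370 to 33887 for MHCC97L-Src and 26975 to 27201 for MHCC97L-Oxa, where both resistant lines lay above MHCC97L. Its log2 difference was 0.91 in MHCC97L-Src, or 0.71 without MHCC97L 1, and 0.64 in MHCC97L-Oxa, or 0.49 without it, the last with an adjusted p of 0.00383 (edgeR quasi-likelihood test, Benjamini-Hochberg). With offsets for GC content and gene length the differences were 0.45 and 0.37, with adjusted p values of 0.0273 and 0.0317 (edgeR quasi-likelihood test, Benjamini-Hochberg). AGER, which codes for RAGE, had 62 to 122 counts over all libraries and the lines overlapped. TLR4 had counts of 303, 21 and 73 for MHCC97L, 30 to 32 for MHCC97L-Src and 33 to 69 for MHCC97L-Oxa, so that its mean in MHCC97L was set by MHCC97L 1. Of the 4 receptor genes edgeR with all libraries and TMM scaling called 0 in each comparison. At an unadjusted p under 0.05 there were 2, 1 and 1 in MHCC97L-Src, in MHCC97L-Oxa and between the resistant lines. DESeq2 called 1, 0 and 0, and limma 0. The median log2 difference was -0.68 in MHCC97L-Src and -0.16 in MHCC97L-Oxa, and without MHCC97L 1 it was -0.15 and turned to 0.41. Between the resistant lines it was -0.32.

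Of 13 binding partners inside the cell or at its membrane, edgeR with all libraries and TMM scaling called 0 in either comparison with MHCC97L. At an unadjusted p under 0.05 there were 5 for MHCC97L-Src and 3 for MHCC97L-Oxa. DESeq2 called 3 and 1, and limma 0 and 0. The median log2 difference was -0.74 in MHCC97L-Src and -0.38 in MHCC97L-Oxa, below that of the S100 genes, but without MHCC97L 1 it was -0.10 and 0.02. Then ANXA11 was called higher and ANXA2 lower in MHCC97L-Src, and PLAT higher in MHCC97L-Oxa (edgeR, Benjamini-Hochberg adjusted p under 0.05). ANXA2, the partner of S100A10, had 39225, 26463 and 18796 counts in MHCC97L 1, 2 and 3, 5771 to 12504 for MHCC97L-Src and 13928 to 16300 for MHCC97L-Oxa. The 3 lines did not overlap, and ANXA2 was lowest in MHCC97L-Src. S100A10 overlapped between MHCC97L-Src and MHCC97L, at a log2 difference of -0.08 (SE 0.28) whose sign changed in 5 of 15 alternative fits. With offsets for GC content and gene length that difference was -0.52. The log2 difference of ANXA2 was -1.53 (SE 0.33) in MHCC97L-Src, with an adjusted p of 0.057 (edgeR quasi-likelihood test, Benjamini-Hochberg), or 0.031 without MHCC97L 1. In MHCC97L-Oxa it was -0.90 (SE 0.27), not called. With offsets for GC content and gene length edgeR's adjusted p for ANXA2 was 0.00504 in MHCC97L-Src (-1.47) and 0.0121 in MHCC97L-Oxa (-0.83). These offsets also called EZR (ezrin) lower in MHCC97L-Src and PLAT higher in MHCC97L-Oxa, with edgeR adjusted p values of 0.0472 and 0.0146. Of all tested genes they called 11.5% and 12.8%. MYH9, the myosin that S100A4 binds, ranged from 15775 to 24649 counts over all libraries, and EZR, a partner of S100P, from 4131 to 8815; each was lowest in MHCC97L-Src.

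For MHCC97L-Src against MHCC97L-Oxa, 3 of the 13 partners were called, where 4.64% of all tested genes were, and the median was -0.33. By CPM range 7 did not overlap, these 3 among them, where 27.6% of all tested genes did not. ANXA11, a partner of S100A6, was higher in MHCC97L-Src by 0.84 (SE 0.12), with an adjusted p of 0.00395 (edgeR quasi-likelihood test, Benjamini-Hochberg), or 0.187 with all 9 libraries in one fit. ANXA1, the partner of S100A11, was lower in MHCC97L-Src at -0.91 (SE 0.20), with an adjusted p of 0.0296 (edgeR quasi-likelihood test, Benjamini-Hochberg), lost without MHCC97L-Src 1 (0.116), MHCC97L-Oxa 2 (0.122) or MHCC97L-Oxa 3 (0.144), with all 9 libraries in one fit (0.846) and by limma (0.056). PLAT, the plasminogen activator that binds S100A10 with annexin A2, was lower at -0.64 (SE 0.15), with an adjusted p of 0.0398 (edgeR quasi-likelihood test, Benjamini-Hochberg), lost without MHCC97L-Src 1 (0.159), MHCC97L-Oxa 1 (0.0994), MHCC97L-Oxa 2 (0.233) or MHCC97L-Oxa 3 (0.174), with all 9 libraries in one fit (0.56), with the replicate number as a block (0.101) and by limma (0.0557).

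Among 25 EF-hand proteins outside the S100 family, edgeR called 1 of 21 tested genes in MHCC97L-Src, 0 of 21 in MHCC97L-Oxa and 0 of 20 between the resistant lines. At an unadjusted p under 0.05 there were 6, 1 and 3, DESeq2 called 1, 0 and 0, and limma 1, 0 and 0. Median log2 differences were 0.14, 0.12 and 0.03, beside 0.62, 0.44 and 0.09 for the 10 S100 genes. Without MHCC97L 1 they were 0.09 for MHCC97L-Src and 0.20 for MHCC97L-Oxa, beside 0.44 and 0.31 for the S100 genes. EFHD1, of mitochondria, had counts of 34, 47 and 37 for MHCC97L and of 2, 4 and 8 for MHCC97L-Src, a log2 difference of -2.96 (SE 0.57) with an adjusted p of 0.0381 (edgeR quasi-likelihood test, Benjamini-Hochberg). It entered the test through its counts in MHCC97L, and with no filter the adjusted p was 0.0293 (edgeR quasi-likelihood test, Benjamini-Hochberg). That call was lost without MHCC97L 3 (0.118), MHCC97L-Src 1 (0.173), MHCC97L-Src 2 (0.16) or MHCC97L-Src 3 (0.111), and with offsets and the replicate number as a block (0.0567). CALM3, CAPNS1 and RCN1, among the most abundant of the 25, were not called with all libraries and TMM scaling. With offsets for GC content and gene length CAPNS1 was called lower in both resistant lines and RCN1 higher in MHCC97L-Oxa (edgeR). These offsets called 11.5% of all tested genes in MHCC97L-Src and 12.8% in MHCC97L-Oxa. Without MHCC97L 1, 3 of 21 were called higher and 3 lower in MHCC97L-Oxa, RCN1 and CAPNS1 among them, where 18.5% of all tested genes were called. In MHCC97L-Src 1 was called higher and 1 lower, where 5.52% were.

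**Figure D4:**
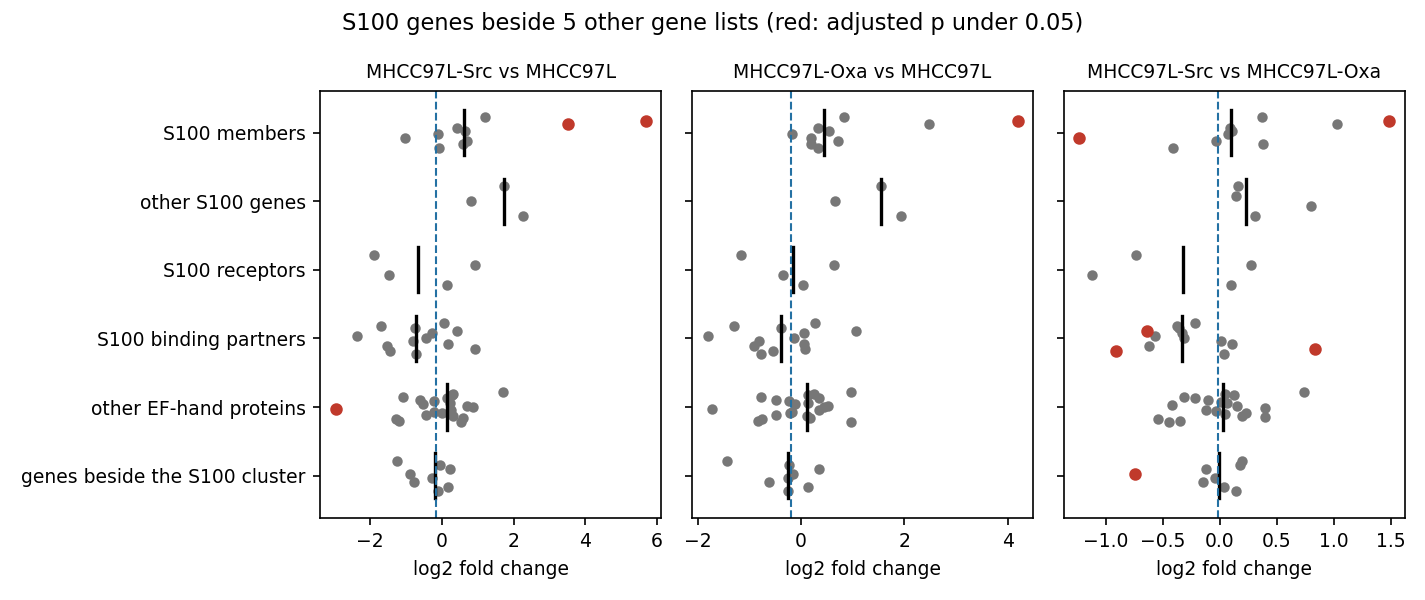
Log2 fold change (horizontal axes) of each tested gene of 6 lists (vertical axis) in the 3 comparisons: points are genes, red at an adjusted p under 0.05 (edgeR), black bars list medians and the dashed line the median of all tested genes. The 10 S100 genes have medians of 0.62, 0.44 and 0.09, and the 3, 3 and 4 tested other S100 genes 1.73, 1.56 and 0.23.

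The epidermal differentiation complex of chromosome 1 holds S100 genes beside fused-type S100 and cornified envelope genes, and a part of these others was counted. Of 7 fused-type S100 genes, which join an S100 domain to long repeats, 6 (FLG and FLG2 among them) had 0 counts in all 9 libraries, below the floor of 3 counts per library, and TCHH had 2 counts in MHCC97L-Oxa 1 alone. Of 8 cornified envelope genes, 7 (IVL and SPRR1A among them) had 0 counts, and SPRR2D had 3, 3 and 6 counts in MHCC97L-Oxa and 0 elsewhere. These genes did not pass the filter and were not tested. Thus S100A9 had at least 12 counts in every library, including those where all these neighbours had 0.

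Of 9 genes named as lying beside the S100 genes, 8 were in the table, and the last, S100A11P1, was not and in fact lies on chromosome 7. ILF2, INTS3 and CHTOP had the most counts. With all libraries and TMM scaling edgeR called 0 of 8 in MHCC97L-Src, with 3 at an unadjusted p under 0.05, and 0 of 8 in MHCC97L-Oxa, with 2. DESeq2 called 0 and 1 of these genes, and limma 0. Their median log2 differences were -0.20 in MHCC97L-Src, -0.24 in MHCC97L-Oxa and just under 0 between the resistant lines. Without MHCC97L 1 they were -0.30 and -0.29 against MHCC97L. NPR1 was then called lower in MHCC97L-Src at -1.06 and SNAPIN in MHCC97L-Oxa at -0.38, with adjusted p values of 0.0306 and 0.018 (edgeR quasi-likelihood test, Benjamini-Hochberg). Offsets for GC content and gene length also called NPR1 lower in MHCC97L-Src, at -1.25 with an adjusted p of 0.00618 (edgeR quasi-likelihood test, Benjamini-Hochberg). NPR1, a natriuretic peptide receptor, was lower in all 3 MHCC97L-Src than in all 3 MHCC97L-Oxa libraries, at -0.74 (SE 0.15) with an adjusted p of 0.022 (edgeR quasi-likelihood test, Benjamini-Hochberg), lost without MHCC97L-Src 1 (0.152), MHCC97L-Oxa 1 (0.108), MHCC97L-Oxa 2 (0.115) or MHCC97L-Oxa 3 (0.108), with all 9 libraries in one fit (0.421) and with the replicate number as a block (0.0709).

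Markers of cell types known to express S100A8 and S100A9 were counted next. Of 11 myeloid markers, PTPRC, LYZ, MPO and TYROBP had 0 counts in all 9 libraries, and FCER1G and ITGAM at most 6 and 8. The others went in both directions. CSF1R had 170 to 233 counts in MHCC97L, 29 to 56 for MHCC97L-Src and 129 to 140 for MHCC97L-Oxa, lower in both without overlap, at log2 differences of -2.21 and -0.64. With all libraries and TMM scaling these were not called. With offsets for GC content and gene length the adjusted p values were 0.00373 and 0.0313 (edgeR quasi-likelihood test, Benjamini-Hochberg). These offsets also called CD14 and CD68 higher in MHCC97L-Oxa. Without MHCC97L 1 the adjusted p values of CSF1R were 0.0137 and 0.0484 (edgeR quasi-likelihood test, Benjamini-Hochberg). That fit also called 3 of the list higher in MHCC97L-Oxa, CD14, CD68 at 0.98 (1.11 with all libraries) and ELANE at 2.26 (1.97 with all libraries), with adjusted p values of 0.00635, 0.0011 and 0.0244 (edgeR quasi-likelihood test, Benjamini-Hochberg). ELANE had 4 to 8 counts in MHCC97L, 10 to 21 for MHCC97L-Src and 18 to 29 for MHCC97L-Oxa, both without overlap, at 2.57 and 3.9 times the MHCC97L mean CPM. Its MHCC97L counts are below the filter's minimum of 10, so ELANE entered these tests through the resistant lines. CSF3R counts were 14, 7 and 12 for MHCC97L-Src, without overlap with the 0, 2 and 0 of MHCC97L, and 3, 8 and 2 for MHCC97L-Oxa. Whether other cells add to S100A8 or S100A9 was not tested. The list summed to 1058, 1569 and 1686 counts in MHCC97L 1, 2 and 3, to 1662, 1698 and 1428 for MHCC97L-Src and to 2874, 2854 and 2848 for MHCC97L-Oxa, mostly from CD68, a lysosomal protein of many cells. CD14 had counts of 16, 18 and 20 for MHCC97L, of 97, 104 and 100 for MHCC97L-Src and of 91, 79 and 87 for MHCC97L-Oxa, high in the same lines as S100A9. It was called at 2.58 (SE 0.43) in MHCC97L-Src, with an adjusted p of 0.0236 (edgeR quasi-likelihood test, Benjamini-Hochberg). That was lost without MHCC97L 3 (0.115), MHCC97L-Src 1 (0.108), MHCC97L-Src 2 (0.105) or MHCC97L-Src 3 (0.109). In MHCC97L-Oxa CD14 was called at 2.24 (SE 0.39), with an adjusted p of 0.0428 (edgeR quasi-likelihood test, Benjamini-Hochberg), lost without MHCC97L 3 (0.164), MHCC97L-Oxa 1 (0.26), MHCC97L-Oxa 2 (0.257) or MHCC97L-Oxa 3 (0.263), and with the replicate number as a block (0.102).

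CD68 and CSF1R, of the 4 myeloid markers tested, were called lower in MHCC97L-Src than in MHCC97L-Oxa with no overlap. CD14 was higher in MHCC97L-Src with no overlap, as S100A9 was, but not called. CD68 stood at -0.75 (SE 0.13), with an adjusted p of 0.0116 (edgeR quasi-likelihood test, Benjamini-Hochberg), lost without MHCC97L-Src 1 (0.0763), MHCC97L-Oxa 1 (0.0609), MHCC97L-Oxa 2 (0.0728) or MHCC97L-Oxa 3 (0.0658), and with all 9 libraries in one fit (0.34). CSF1R stood at -1.57 (SE 0.29), with an adjusted p of 0.0135 (edgeR quasi-likelihood test, Benjamini-Hochberg), lost without MHCC97L-Src 1 (0.0707), MHCC97L-Oxa 1 (0.0559) or MHCC97L-Oxa 2 (0.0753), and with all 9 libraries in one fit (0.137).

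Of 7 keratinocyte markers, KRT1 and DSG3 had 0 counts throughout and KRT14, KRT5 and TP63 at most 6, 19 and 15. The list summed to 3977, 5982 and 6457 counts in MHCC97L 1, 2 and 3, to 6537, 7647 and 5767 for MHCC97L-Src and to 5579, 5639 and 5565 for MHCC97L-Oxa, mostly from SFN, which like S100A2 is a target of p53. Of the 2 tested, SFN and KRT10, edgeR with all libraries and TMM scaling called 0 in each comparison. At an unadjusted p under 0.05 there were 0, 0 and 1, and DESeq2 and limma called 0. Offsets for GC content and gene length called SFN lower in MHCC97L-Oxa, at -0.33 with an adjusted p of 0.0472 (edgeR quasi-likelihood test, Benjamini-Hochberg). Without MHCC97L 1, KRT5 was tested too, through its counts in MHCC97L. It was called lower in MHCC97L-Oxa at -5.09, with an adjusted p of 0.0133, but not in MHCC97L-Src, with 0.185 (edgeR quasi-likelihood test, Benjamini-Hochberg). No alternative that keeps every library called KRT5. The part of these markers in the S100 differences was not tested.

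The labelled hepatocellular origin was hardly seen in hepatocyte markers. Of 10, ALB, AFP, APOB and TTR had 0 counts in all 9 libraries, and APOA1, FGB, GPC3, HNF4A and TF reached at most 4, 1, 1, 13 and 5. The list summed to 5, 10 and 7 counts in MHCC97L 1, 2 and 3, to 34, 17 and 21 for MHCC97L-Src and to 39, 28 and 23 for MHCC97L-Oxa. SERPINA1, which codes for alpha-1 antitrypsin, had the most counts of the list over the resistant libraries, with 22, 9 and 10 counts for MHCC97L-Src and 31, 14 and 14 for MHCC97L-Oxa, beside 1 in each MHCC97L library. Its ratio to MHCC97L was 14.1 in MHCC97L-Src (95% exact Clopper-Pearson counting interval 4.49 to 71.0) and 19.5 in MHCC97L-Oxa (6.35 to 97.2). With all libraries it entered the comparisons with MHCC97L only through its counts in MHCC97L-Oxa. There edgeR called it with an adjusted p of 0.0323, or 0.0297 with no filter (edgeR quasi-likelihood test, Benjamini-Hochberg). That call was lost without MHCC97L 3 (0.159), MHCC97L-Oxa 1 (0.207), MHCC97L-Oxa 2 (0.165) or MHCC97L-Oxa 3 (0.152). Without MHCC97L 1 it was also tested in MHCC97L-Src, and called at 3.71 with an adjusted p of 0.0397 (edgeR quasi-likelihood test, Benjamini-Hochberg). In MHCC97L-Oxa DESeq2 gave SERPINA1 no adjusted p, so it was not called there. Limma did not call it, its Benjamini-Hochberg adjusted p being 0.22 on log2(FPKM + 1) and 0.0701 on log2(FPKM + 0.1).

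Of 5 epithelial markers, KRT8 and KRT18 were abundant and CDH1, KRT19 and EPCAM had at most 19, 11 and 2 counts. The list summed to 59514, 99265 and 107441 counts in MHCC97L 1, 2 and 3, to 92273, 108218 and 82443 for MHCC97L-Src and to 56046, 53557 and 56921 for MHCC97L-Oxa, with KRT8 the most abundant. KRT8 was called higher in MHCC97L-Src than in MHCC97L-Oxa, at 0.87 (SE 0.16) with an adjusted p of 0.0136 (edgeR quasi-likelihood test, Benjamini-Hochberg), lost without MHCC97L-Src 1 (0.0544), MHCC97L-Oxa 1 (0.0671), MHCC97L-Oxa 2 (0.106) or MHCC97L-Oxa 3 (0.0535), and with all 9 libraries in one fit (0.377). KRT18 was called at 0.91 (SE 0.14), with an adjusted p of 0.00471 (edgeR quasi-likelihood test, Benjamini-Hochberg), or 0.228 with all 9 libraries in one fit. Neither overlapped between these lines. Against MHCC97L edgeR with all libraries and TMM scaling called 0 of 3 tested in either line. At an unadjusted p under 0.05 there was 1 for MHCC97L-Src and 2 for MHCC97L-Oxa, and DESeq2 and limma called 0. With offsets for GC content and gene length KRT8 and CDH1 were called lower in MHCC97L-Src, at -0.53 and -2.285. Their adjusted p values were 0.0409 and 0.014 (edgeR quasi-likelihood test, Benjamini-Hochberg). In MHCC97L-Oxa these offsets called KRT8, KRT18 and CDH1 lower, with adjusted p values of 0.00243, 0.01 and 0.00876 (edgeR quasi-likelihood test, Benjamini-Hochberg). Of all tested genes these offsets called 11.5% and 12.8%. Without MHCC97L 1, KRT8 at -1.11, KRT18 at -0.47 and CDH1 at -2.415 were called lower in MHCC97L-Oxa, with adjusted p values of 7.34e-04, 0.00776 and 0.024 (edgeR quasi-likelihood test, Benjamini-Hochberg). CDH1 had at most 19 counts and was not tested between the resistant lines, so it entered these tests through its counts in MHCC97L. Like 8 of the 10 S100 genes, KRT8 and KRT18 were lower in MHCC97L 1 than in both other MHCC97L libraries.

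Of 7 fibroblast markers none was at 0 in all libraries, PDGFRA, COL1A2 and COL3A1 had at most 1, 2 and 9 counts, and THY1 was the most abundant. The list summed to 10272, 12270 and 12745 counts in MHCC97L 1, 2 and 3, to 7085, 7209 and 6853 for MHCC97L-Src and to 9318, 9603 and 9503 for MHCC97L-Oxa. DCN was called lower in MHCC97L-Src than in MHCC97L-Oxa, at -1.89 (SE 0.26) with an adjusted p of 0.00294 (edgeR quasi-likelihood test, Benjamini-Hochberg), or 0.111 with all 9 libraries in one fit. Its libraries did not overlap. Against MHCC97L edgeR called 0 of 4 fibroblast markers tested in either line, with 2 for MHCC97L-Src and 0 for MHCC97L-Oxa at an unadjusted p under 0.05; DESeq2 called 2 and 0, and limma 0. Without MHCC97L 1, THY1 was called at -0.80 in MHCC97L-Src and -0.58 in MHCC97L-Oxa, with adjusted p values of 0.0275 and 0.00424 (edgeR quasi-likelihood test, Benjamini-Hochberg). DCN and COL1A1 were then called higher in MHCC97L-Oxa, at 0.71 (-0.04 with all libraries) and 0.34, with adjusted p values of 0.00575 and 0.046 (edgeR quasi-likelihood test, Benjamini-Hochberg). Of 4 endothelial markers, KDR had 0 counts and VWF at most 4. They summed to 46, 46 and 40 counts in MHCC97L, to 207, 220 and 275 for MHCC97L-Src and to 24, 31 and 32 for MHCC97L-Oxa. CDH5 made up most of the sum in MHCC97L-Src, with 188, 196 and 236 counts, while PECAM1 had more counts than CDH5 in every MHCC97L-Oxa library. CDH5 was called at 3.30 (SE 0.46) in MHCC97L-Src against MHCC97L, with an adjusted p of 0.0139 (edgeR quasi-likelihood test, Benjamini-Hochberg), lost without MHCC97L 3 (0.0823), MHCC97L-Src 2 (0.0535) or MHCC97L-Src 3 (0.0686). Against MHCC97L-Oxa it was called at 4.61 (SE 0.28), with an adjusted p of 1.7e-05 (edgeR quasi-likelihood test, Benjamini-Hochberg). CDH5 had 8, 12 and 7 counts in MHCC97L-Oxa, so it entered that test through MHCC97L-Src. With no filter the adjusted p was 5.98e-07 (edgeR quasi-likelihood test, Benjamini-Hochberg). In MHCC97L-Oxa edgeR with all libraries and TMM scaling called 0 of 2 endothelial markers, with 1 at an unadjusted p under 0.05 and 0 by DESeq2 or limma. Offsets for GC content and gene length called CDH5 lower there, at -1.36 with an adjusted p of 0.0466 (edgeR quasi-likelihood test, Benjamini-Hochberg). Unlike S100A9, CDH5 was high in MHCC97L-Src alone, and the part of these markers in the S100 differences was not tested.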

How the data were processed

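The authors deposited raw counts per gene and FPKM for 20030 genes in the 9 libraries. Their notes name Trimmomatic 0.36, HISAT2 2.2.1.0 and GRCh38.p12, and the counting program is not given in the sources used here. All value columns were used and 0 were left out. The 10 S100 genes and all lists were chosen with earlier results of these data known.

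Counts of the 6 libraries of each comparison were filtered with filterByExpr (minimum count 10), scaled by TMM and tested with the quasi-likelihood method of edgeR, with Benjamini-Hochberg adjustment over all tested genes. Standard errors are the log2 fold change over the square root of F. Log2 CPM used a prior count of 2. Tables were made with pandas 2.3.3 and NumPy 2.4.6 in Python 3.11.15, intervals with SciPy 1.17.1, plots with matplotlib 3.10.9, and fits in R 4.3.3 with edgeR 4.0.16, DESeq2 1.42.0 and limma 3.58.1. The fit was tested on simulated data: with the spread of each comparison, of 100 genes given a 2-fold change it called 7 (MHCC97L-Src), 6 (MHCC97L-Oxa) and 76 (between the resistant lines).

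Totals of 16970486 to 18209213 counts put the floor of 3 counts at 0.165 to 0.177 CPM. Positions, exons, GC content and length are from GENCODE release 29, with GC content and length found for 19343 genes (13518 by RefSeq accession, 5825 by symbol). Named besides the 10 genes are other S100 genes with at least 10 counts in a library. Of each other list, genes called in any comparison and the 3 with the most counts are named. For the 3 S100 genes with the widest range of line means, the 3 most similar genes are named.

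Alternatives were DESeq2's Wald test, its size factors in edgeR, no filter, all 9 libraries in one fit, the replicate number as a block, limma-trend on log2(FPKM + 1) and log2(FPKM + 0.1), offsets from splines (5 degrees of freedom) of GC content and log2 length, alone and with the block, and fits that each lacked 1 library. The summed share was also taken without the 10 genes with the most counts.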

Additional observations from a re-analysis of the deposited data

Results flagged for a closer look

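The difference between MHCC97L-Src and MHCC97L-Oxa is also the difference between the changes of the resistant lines from the MHCC97L libraries they share. In 12 of the genes described, the resistant lines differed at an adjusted p under 0.05 (edgeR). Of all tested genes 4.64% did, but some genes were named because they were called, so the 12 cannot be read against that share. Only S100A9 and CDH5 were called in all 9 alternatives that keep every library, no filter among them. CDH5 entered the filtered test through its counts in MHCC97L-Src. The other 10 were not called with all 9 libraries in one fit. On the log2 scale S100A9 was higher in MHCC97L-Src by 1.49, and S100A2 stood at -1.23. Of the genes that S100 proteins bind, ANXA11 stood at 0.84, ANXA1 at -0.91 and PLAT at -0.64. NPR1, a neighbour of the S100 genes, stood at -0.74. Of the epithelial markers, KRT18 stood at 0.91 and KRT8 at 0.87. Of the myeloid markers, CD68 stood at -0.75 and CSF1R at -1.57. CDH5 of the endothelial list stood at 4.61 and DCN of the fibroblast list at -1.89.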

How the results depend on the processing

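S100A9 kept its direction and its edgeR call in all 9 alternatives that keep every library, in each of the 3 comparisons, and S100A8 in MHCC97L-Src did too. S100A2 was called lower in MHCC97L-Src than in MHCC97L-Oxa in 8 of these 9, the exception being all 9 libraries in one fit. Over the 15 alternatives, 7 of 10 S100 genes had no change of sign in MHCC97L-Src, 6 in MHCC97L-Oxa and 6 between the resistant lines. The exceptions were S100A3, S100A6 and S100A10, then S100A2, S100A3, S100A6 and S100A11, then S100A3, S100A4, S100A6 and S100A16. Of 450 recomputed S100 log2 differences, 412 moved by less than the spread between replicates and 38 by more, and 0 turned from a called value to the other sign.

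In MHCC97L-Src 256 genes were called over the whole table: 2114 by DESeq2, 702 without a filter, 1956 with all 9 libraries in one fit and 1388 with offsets for GC content and gene length. In MHCC97L-Oxa 115 were called: 895 by DESeq2, 495 with all 9 libraries, 252 and 256 by limma on log2(FPKM + 1) and log2(FPKM + 0.1), 1539 with the offsets and 633 with the offsets and the block. Between the resistant lines 556 were called: 839 by DESeq2, 86 with all 9 libraries and 1196 with the offsets. Of the 10 S100 genes, the offsets called 5 in MHCC97L-Src, 4 in MHCC97L-Oxa and 5 between the resistant lines. In MHCC97L-Oxa DESeq2 called 2 S100 genes, and so did the fit of all 9 libraries, which called 1 between the resistant lines. The cause was not tested.

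Leaving out 1 library gave 22 to 3419 called genes in MHCC97L-Src (1 to 3 S100 genes), 2 to 2705 in MHCC97L-Oxa (0 to 5) and 167 to 1617 between the resistant lines (1 to 5). The lowest count in MHCC97L-Src was without MHCC97L 3 and the highest without MHCC97L 2. In MHCC97L-Oxa 2251 genes were called without MHCC97L 1 and 2705 without MHCC97L 2, and 2 without MHCC97L 3 or any MHCC97L-Oxa library. Between the resistant lines the highest count was without MHCC97L-Src 3 and the lowest without MHCC97L-Oxa 2.

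With the replicate number as a paired term, the replicate block called 988 genes in MHCC97L-Src, 92 in MHCC97L-Oxa and 406 between the resistant lines, with 3, 1 and 2 S100 genes. Libraries of the same number did not pair: the correlation across genes of their deviations from their lines was 0.17, 0.216 and -0.65 for MHCC97L-Src with MHCC97L, -0.215, -0.134 and 0.444 for MHCC97L-Oxa with MHCC97L and 0.0311, -0.0851 and -0.291 for the resistant lines.

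The offsets moved the median of all genes in MHCC97L-Oxa from -0.19 to -0.06, DESeq2's size factors moved it to -0.12, and leaving out MHCC97L 1 gave 0.00. In MHCC97L-Src, 67.2% of called genes were higher, 34.2% by DESeq2, 38.2% without a filter, 43.7% with all 9 libraries, 31.1% with the block and 46.9% with the offsets. In MHCC97L-Oxa 80.9% were higher, 63.8% by DESeq2 and 54.0% with the offsets. Without MHCC97L 2 most calls were lower in both comparisons, with 20.2% higher in MHCC97L-Src and 23.5% in MHCC97L-Oxa. Without the 10 genes with the most counts, the S100 share in MHCC97L-Oxa was 0.374% in place of 0.343%. At 3 to 6 counts per MHCC97L library, depth limits the level of S100A8.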
